A study of Arabidopsis thaliana with 15 samples.

Results

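Between the first and the third parabola of a C-9 flight, transcripts of 285 genes changed in Arabidopsis roots, with AT3G46190 the largest rise and the auxin-conjugating enzyme gene GH3.17 the largest fall. The comparison set 4 arrays of roots fixed after parabola 3 against 4 arrays of roots fixed after parabola 1, that is 8 of the 15 arrays of the series. All 16550 genes with a row of their own on the array were tested. The seedlings, Arabidopsis thaliana, 10 days old, of the Wassilewskija background, all carried pCaMV35S:14-3-3κ:GFP, a fusion of the regulatory protein 14-3-3κ to a fluorescent reporter under a promoter that is active in most tissues. No group without the transgene was part of the series. Seedlings sat in fixation tubes loaded with RNAlater, and the tubes were actuated after parabola 3, after parabola 1, after parabola 10 (n = 3) or in level flight before the first parabola (n = 4). Whole roots were cut off later and pooled, and each pool was hybridised to its own AraGene 1.0 ST array of Affymetrix. All values are log2 expression levels, so a difference of 1 is a 2-fold difference. All pools of a condition came from 1 tube. The p-values therefore measure only the spread among pools of 1 tube, and parabola number, tube and time on board cannot be told apart. A pool also mixes all cells of the root, in which fewer cells of a type and less RNA per cell cannot be told apart.

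A parabola joins a phase of reduced gravity to phases of raised gravity before and after it. Roots sense the direction of gravity in the columella cells of the cap, where dense starch-filled plastids settle, and the signal is passed on by calcium, by changes in pH and by redirected flow of the hormone auxin. Handling, vibration and touch also raise calcium and switch on quickly induced stress genes, many of which have short-lived transcripts. In such a series a comparison with level flight covers everything that happened on board up to fixation, while the comparison of parabola 3 with parabola 1 covers what came between these times.

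The label of the tissue was checked first, with the only 1 of 14 listed root markers that was measured. PYK10, an abundant root beta-glucosidase of endoplasmic reticulum bodies, lay between 12.44 and 12.58 after parabola 3 and between 12.53 and 12.76 after parabola 1, and the groups overlapped. The median over the tested genes was 3.67 in both groups, and the 8 reference genes averaged 5.47 in both. Over all rows the median was 3.77 after parabola 3 and 3.85 after parabola 1 (exact permutation test, two-sided, p = 0.114). Array replicate 1 of parabola 3 stood somewhat apart. After each gene's mean over all 15 arrays was subtracted, it correlated at 0.05 to 0.09 with the other parabola 3 arrays, which is a description across genes. A set of 7083 rows without a gene, those listed before the first annotated row and called the unnamed rows here, had a median of 2.58 on it, against 2.41 to 2.48 in the other 3. The unnamed rows had a median of 2.48 ± 0.07 after parabola 3 and of 2.63 ± 0.05 after parabola 1 (SD, n = 4 each, exact permutation test, two-sided, p = 0.0571, adjusted p = 0.2 over 7 array-level values). Their group means thus differed, though replicate 1 of parabola 3 (2.58) lay above the lowest parabola 1 array (2.56). Their part in the comparison was not tested beyond the fit given next.

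By limma, 285 genes, or 1.72% of those tested, differed at an adjusted p under 0.05. Transcripts of 126 genes (0.761%) were higher after parabola 3 and those of 159 genes (0.961%) were lower. Most differences were modest. The median rise was 0.72 and the median fall was −0.63, and 36 genes were at least 2-fold higher (0.218%) against 19 that were at least 2-fold lower (0.115%). Without adjustment, 2398 genes (14.5%) had a p under 0.05, 1192 (7.2%) with a positive and 1206 (7.29%) with a negative difference. In 267 of the 285 genes the 4 arrays of one group did not overlap the 4 of the other, which held for 7.54% of all tested genes. Calls and overlap rest on the same arrays, so the 267 follow largely from the calls and are no separate evidence. The count of 285 depended on single arrays. It was 134, 171 and 158 without replicate 1, 2 or 3 of parabola 1, and 171, 162 and 151 without replicate 2, 3 or 4 of parabola 3. Without replicate 1 of parabola 3 it was 384, of which 228 were among the 285. With the array median of the unnamed rows as a covariate it was 19. All 285 genes kept their direction under that covariate, their median difference in that direction was 0.61 (0.66 without the covariate), and the median standard error was 0.20, against 0.14 without it. The 285 were called on these same arrays, so their kept direction and size are no separate evidence.

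**Figure D1:**
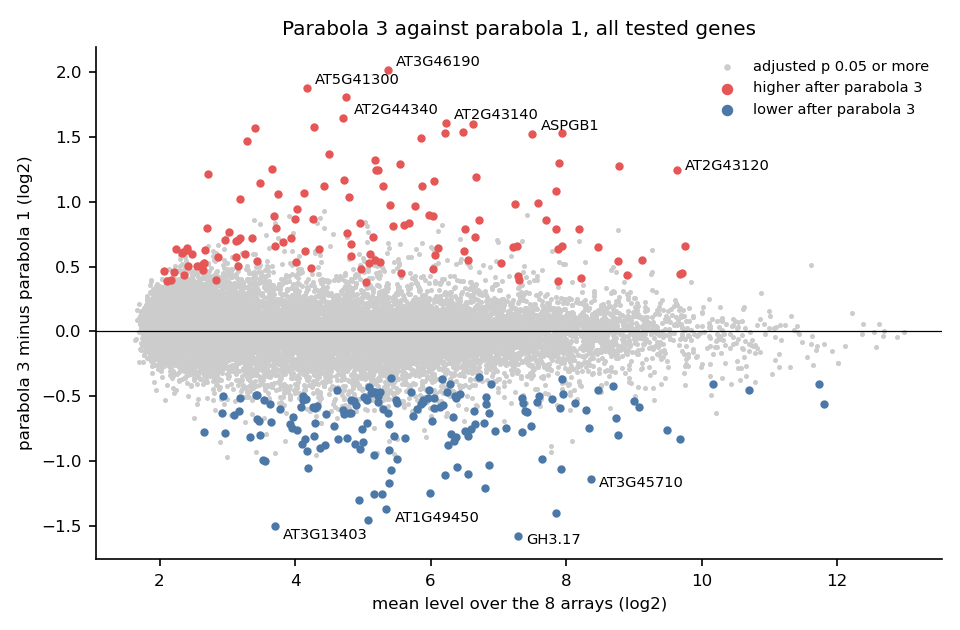
Each point is 1 of the 16550 tested genes, with its mean log2 level over the 8 arrays on the horizontal axis and the log2 difference, parabola 3 minus parabola 1, on the vertical axis. Red points are the 126 genes that rose, blue points the 159 that fell, and grey points the genes with an adjusted p of 0.05 or more.

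AT3G46190 had the largest difference of all. It stood at 6.73, 6.25, 6.06 and 6.46 after parabola 3, against 4.3, 3.8, 4.82 and 4.52 after parabola 1, which is 4.04-fold higher (log2 fold change 2.02 ± 0.18 SE, limma adjusted p = 1.69e-05). Every parabola 3 array lay above every parabola 1 array. Against level flight, the gene was 0.98 higher after parabola 1, 2.99 higher after parabola 3 and 1.17 higher after parabola 10, so the parabola 3 roots held the highest level of the series. The comparisons with level flight share the parabola 1 or the parabola 3 arrays with the comparison reported here, and are given for each gene side by side as levels, not as separate support.

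GH3.17 had the largest fall. Its product, an acyl acid amido synthetase, joins auxin to glutamate and so takes it out of the active pool. GH3.17 stood at 6.69, 6.57, 6.51 and 6.25 after parabola 3, against 8.18, 7.94, 8.38 and 7.83 after parabola 1, which is 2.99-fold lower (−1.58 ± 0.15 SE, limma adjusted p = 1.69e-05). The groups lay more than 1 log2 unit apart. Relative to level flight GH3.17 was at 0.45 after parabola 1, at −1.13 after parabola 3 and at −0.67 after parabola 10.

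Of the 15 largest rises with groups that did not overlap, several started from different sides of level flight. AT2G43140 stood at 7.30, 6.83, 7.01 and 6.97 after parabola 3, against 5.11, 5.26, 5.74 and 5.58 after parabola 1 (1.61 ± 0.15 SE). AT5G40590 stood at 7.45, 7.03, 7.02 and 7.50 after parabola 3, against 5.91, 5.37, 5.73 and 5.83 after parabola 1 (1.54 ± 0.15 SE). Both genes were above level flight after every parabola, by 0.68, 2.29 and 2.04 for AT2G43140 after parabola 1, 3 and 10, and by 0.41, 1.95 and 1.86 for AT5G40590. AT5G48430 had the same order, with 0.58, 2.18 and 2.17 above level flight. AT5G49850 differed from these. It was 0.81 below level flight after parabola 1 (a difference of −0.81), 0.84 above it after parabola 3 and at −1.0 after parabola 10, with 6.34, 5.14, 5.57 and 5.07 on the parabola 3 arrays, against 3.82, 4.1, 4.06 and 3.54 on the parabola 1 arrays. AT1G15125 was likewise at −1.02 after parabola 1, at 0.47 after parabola 3 and at −0.41 after parabola 10. The others of the 15 were AT5G41300, AT2G44340, AT2G46495, AT2G30660, AT5G41280, AT3G20590, ASPGB1, AT3G27950 and AT5G09710, with rises from 1.32 to 1.88.

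Among the 15 largest falls, a group of genes stood high after parabola 1 alone. AT5G15190 stood at 4.52, 4.48, 4.52 and 4.64 after parabola 3, against 5.97, 5.77, 5.62 and 5.81 after parabola 1 (−1.26 ± 0.12 SE, limma adjusted p = 1.69e-05). AT3G56080 stood at 4.66, 4.86, 4.62 and 4.47 after parabola 3, against 5.94, 5.77, 6.10 and 5.82 after parabola 1 (−1.25 ± 0.11 SE). In both, the parabola 3 arrays were close together and all lay below the parabola 1 arrays. Relative to level flight AT5G15190 was at 0.99, −0.27 and −0.14 after parabola 1, 3 and 10, and AT3G56080 was at 0.89, −0.36 and 0.21. AT1G52342 (1.04, −0.26 and 0.30) and AT3G13403 (1.17, −0.33 and 0.01) had the same order. AT2G34610 was at 1.07 after parabola 1 and 0.01 after parabola 3.

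Other large falls had other orders. AT1G49450 stood at 4.54, 4.74, 4.66 and 4.68 after parabola 3, against 6.37, 6.37, 5.92 and 5.47 after parabola 1 (−1.38 ± 0.21 SE). It was at −0.01, −1.39 and −1.44 relative to level flight after parabola 1, 3 and 10. AT1G78922 was at 0.10, −1.07 and −2.06. AT5G65990 was already below level flight after parabola 1, at −0.48, −1.55 and −1.51. AT3G45710 was low after parabola 3 alone, with 7.85, 7.67, 7.79 and 7.90, against 8.73, 8.67, 9.28 and 9.07 after parabola 1, and it was 0.19 above level flight after parabola 10. The remaining falls of the 15 were AT4G33610, AT5G28520, AT5G66780, psbM and AT3G22550, from −1.25 to −1.05. Of the 30 genes taken by size, AT2G30660, AT5G09710, AT4G33610, AT5G28520, AT5G66780 and psbM lost their call when at least 1 of the arrays was left out.

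**Figure D2:**
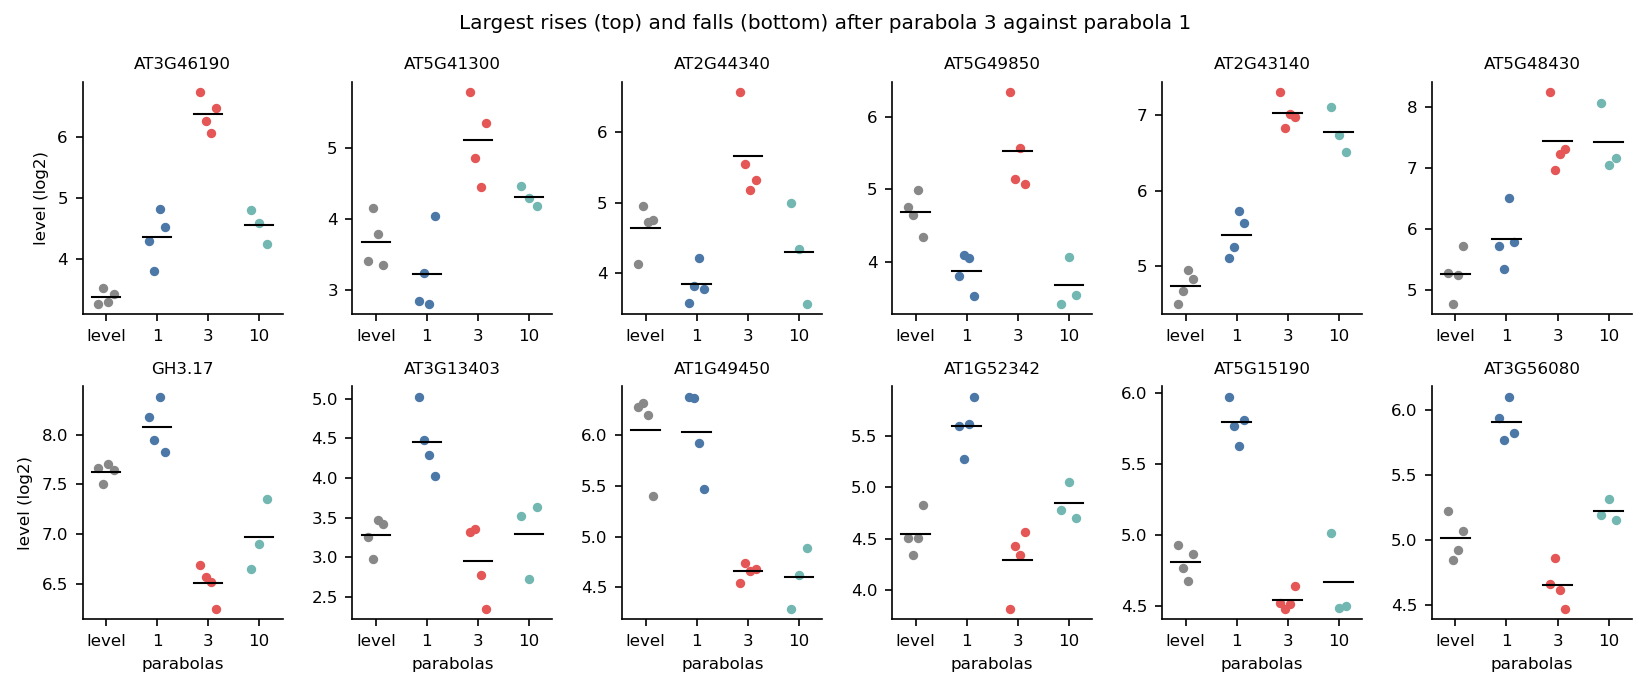
Log2 level on each array of the 6 largest rises (top row) and the 6 largest falls (bottom row) with groups that did not overlap, in level flight and after parabola 1, 3 and 10. Points are arrays and bars are group means. AT3G46190 peaks after parabola 3 at a mean of 6.38, and AT5G15190, AT3G56080 and AT1G52342 peak after parabola 1.

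The parabola 3 arrays did not fall together in every large fall. AT4G30097 stood at 5.65 on replicate 1 of parabola 3 and at 3.73, 4.19 and 3.85 on the other 3, against 5.82 to 5.92 on 3 parabola 1 arrays and 5.65 on the fourth. AT3G41762 stood at 8.55 on replicate 1 and at 6.55 to 6.84 on the others, against 8.45 to 8.63 after parabola 1. AT4G36791 had the same layout, with 7.32 on replicate 1, 5.41 to 6.36 on the others and 7.24 to 7.69 after parabola 1. These genes were called (log2 fold changes of −1.46, −1.40 and −1.21), but replicate 1 of parabola 3 lay among the parabola 1 arrays, so they are not counted among the 15. AT7SL-1, an RNA of the signal recognition particle, which guides new proteins to the endoplasmic reticulum, was similar, with 12.06 on replicate 1 and 11.30 to 11.43 on the others, against 12.08 to 12.11 after parabola 1.

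Most of the changed genes, 257 of the 285, are known in the array's annotation by locus alone, and no role is given for them here. A symbol was given for 9 of the rises and 19 of the falls. These, and a few loci with a synonym in the RefSeq table, are described next by role, and were picked for having a name after their values had been seen. Of all these genes, GH3.17 alone kept its call with the unnamed-row median as covariate (−1.27, limma adjusted p = 0.0137). Besides GH3.17, the cytokinin glucosyltransferase gene UGT76C1 fell, with 4.99, 5.02, 4.69 and 4.85 after parabola 3, against 5.48, 5.28, 5.17 and 5.51 after parabola 1 (−0.48 ± 0.11 SE, limma adjusted p = 0.0339). BAT1, an acyltransferase gene that acts on brassinosteroid levels, fell too (−0.53 ± 0.13 SE), and was at −0.97, −1.50 and −0.84 relative to level flight after parabola 1, 3 and 10. CLE26, which encodes a secreted signalling peptide, stood at 4.51, 3.87, 4.40 and 3.78 after parabola 3, against 4.85, 4.84, 4.78 and 4.65 after parabola 1 (−0.64 ± 0.16 SE). The UGT76C1 call was lost on leaving out replicate 1, 2 or 4 of parabola 1 or replicate 3 or 4 of parabola 3, and the CLE26 call was lost without any of 6 of the 8 arrays. EXO, a cell expansion gene that brassinosteroids induce, rose by 0.53 ± 0.12 SE. It had been at −0.27 relative to level flight after parabola 1 and was at 0.26 after parabola 3.

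Regulatory genes moved in both directions. WRKY22, a transcription factor of early immune signalling, stood at 5.39, 4.87, 5.30 and 5.00 after parabola 3, against 4.87, 4.56, 3.83 and 4.27 after parabola 1 (0.76 ± 0.17 SE, limma adjusted p = 0.0297). The groups met at 4.87. WRKY22 was at −1.40 relative to level flight after parabola 1, at −0.64 after parabola 3 and again at −1.39 after parabola 10. Its adjusted p was above 0.05 without replicate 3 or 4 of parabola 1 or replicate 1, 3 or 4 of parabola 3. The AP2/ERF transcription factor gene tny rose by 0.59 ± 0.10 SE, with 6.24, 6.20, 6.39 and 6.58 after parabola 3, against 5.65, 5.85, 5.75 and 5.82 after parabola 1. It was at −0.55, 0.04 and 0.25 relative to level flight after parabola 1, 3 and 10. AT5G61590, listed as DEWAX, a repressor of wax synthesis, rose by 0.72 ± 0.13 SE, and AT2G12900, listed as bZIP33, by 0.53 ± 0.13 SE.

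UPB1, a basic helix-loop-helix factor that controls peroxidases where root cells stop dividing and begin to differentiate, fell to 3.63, 4.16, 3.49 and 4.23 after parabola 3, against 4.63, 4.52, 4.80 and 4.79 after parabola 1 (−0.81 ± 0.16 SE). The class III peroxidase gene Prx37 rose by 0.45 ± 0.11 SE. It was the only change among the 6 genes found under that family's name, where 1.72% of all tested genes changed. The Prx37 call was lost whichever of the 8 arrays was left out (limma adjusted p from 0.051 to 0.124). NAI1, the factor required for endoplasmic reticulum bodies, stood at 8.11, 7.89, 8.02 and 7.83 after parabola 3, against 8.52, 8.44, 9.01 and 8.88 after parabola 1 (−0.75 ± 0.12 SE). NAI1 was above level flight after every parabola, by 1.17, 0.42 and 0.95. PYK10, the enzyme stored in these bodies, differed by −0.12 ± 0.08 SE (limma adjusted p = 0.551). bZIP48 fell by 0.95 on the log2 scale, and was 0.35 above level flight after parabola 3, against 1.3 after parabola 1.

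Among enzymes of primary metabolism, ASPGB1, an asparaginase that releases ammonium from asparagine, stood at 8.36, 8.15, 8.31 and 8.22 after parabola 3, against 6.67, 6.83, 6.45 and 7.01 after parabola 1 (2.87-fold, 1.52 ± 0.19 SE, limma adjusted p = 0.000336). It was at −0.76, 0.77 and 0.20 relative to level flight after parabola 1, 3 and 10. PPDK, which interconverts pyruvate and phosphoenolpyruvate, stood at 4.68, 4.78, 5.12 and 5.40 after parabola 3, against 3.84, 3.89, 3.70 and 4.07 after parabola 1 (1.12 ± 0.18 SE). PPDK was within 0.05 of level flight after parabola 1 and 1.17 and 1.24 above it after parabola 3 and 10. cwINV6, listed in the RefSeq table as a fructan exohydrolase, rose by 1.08 ± 0.17 SE, with all 4 parabola 3 arrays above all 4 parabola 1 arrays. AT2G43120, listed as PIRIN2, stood at 10.81, 9.73, 10.25 and 10.26 after parabola 3, against 8.87, 9.30, 8.71 and 9.18 after parabola 1. Relative to level flight it was at −1.40, −0.15 and −1.76 after parabola 1, 3 and 10, so it was near the level flight value after parabola 3 alone.

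Other genes with a symbol also changed. Rises came in the cytochrome P450 gene CYP71B29 (0.89 ± 0.17 SE) and in the defensin-like peptide gene LCR73 (0.60 ± 0.12 SE). Falls came in CYP718 (−0.72, lost without any 1 of 7 arrays), the lectin gene EULS3 (−0.71), the small GTPase gene SGP1 (−0.73) and the glutathione transferase gene GSTU26 (−0.59). OASA2, of cysteine synthesis, ARD4, of methionine salvage, the SNARE gene AtSec20 and NTMC2T6.2 fell by 0.53, 0.47, 0.47 and 0.37 on the log2 scale. SINA2, or AT3G13672, fell by 0.70.

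**Figure D3:**
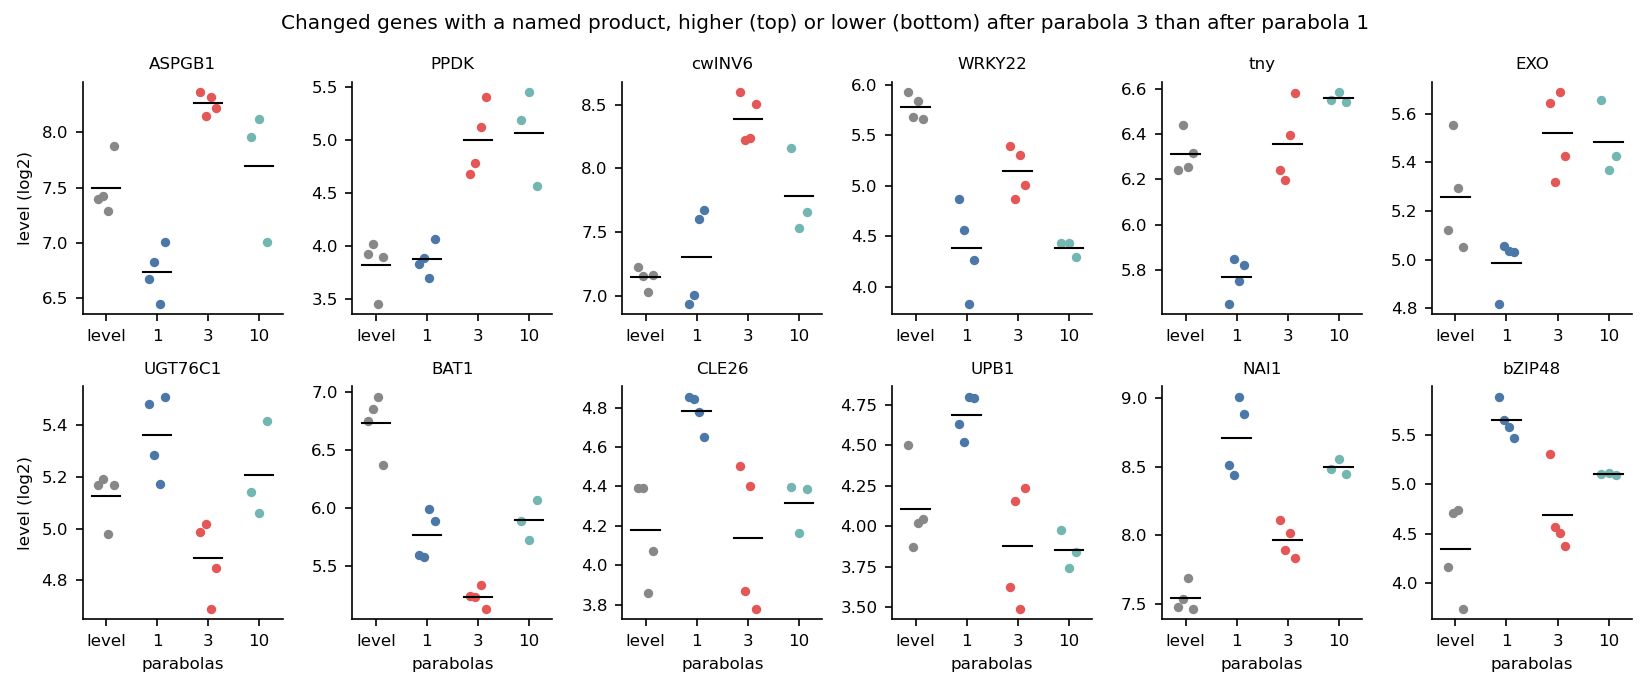
Log2 level on each array of 6 named genes that rose (top row) and 6 that fell (bottom row), in level flight and after parabola 1, 3 and 10. Points are arrays and bars are group means. WRKY22 lies below level flight after all parabolas, tny is low after parabola 1 alone, and UPB1 and CLE26 are highest after parabola 1. None of the genes shown kept its call with the unnamed-row median as covariate.

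Of 20 genes taken from the largest differences between parabola 1 and level flight, 2 fell and none rose between parabola 1 and parabola 3, where 1.72% of all tested genes changed. Without adjustment, 6 of the 20 had a p under 0.05 with a negative difference and 1 with a positive one, against 7.29% and 7.2% of all tested genes. All of these stood above level flight after parabola 1, and no gene of the list that stood below it had such a p. The median over the 20 was 0.0016, but the list holds genes that stood below and genes that stood above level flight, so its median says little. The 20 were chosen on the parabola 1 arrays, so their differences from parabola 1 are not independent of the choice. Such a choice alone tends to place parabola 3 nearer to level flight, so the shares over all genes are no matched background for this list. STZ, a zinc finger repressor of stress signalling, stood at 8.05, 7.51, 8.10 and 7.54 after parabola 3, against 7.42, 8.0, 7.57 and 7.59 after parabola 1. The groups overlapped, and the difference was 0.15 with a 95% interval from −0.20 to 0.51. GRX480, a glutaredoxin gene, differed by 0.25 (95% interval −0.11 to 0.61), and AT4G27654 by 0.26 (−0.18 to 0.71). Relative to level flight these 3 genes were at −2.19, −2.30 and −3.02 after parabola 1 and at −2.04, −2.04 and −2.75 after parabola 3. Except AT5G62210, all genes of the list below level flight were highest, among the parabola 3 arrays, on replicate 3. It held 3.39 for AT4G27654 (others 2.51 to 2.91) and 3.57 for GRX480 (others 2.68 to 3.44). That array thus raised these differences. AT1G49570, the largest rise after parabola 1, stood at 7.31, 7.37, 7.17 and 7.07 after parabola 3, against 6.49, 6.23, 7.10 and 6.94 after parabola 1, a difference of 0.54 (95% interval 0.21 to 0.87, limma adjusted p = 0.102).

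Other genes of the list that stood above level flight after parabola 1 had negative differences that did not pass the test. AT4G25410 stood at 6.1, 5.98, 5.78 and 5.84 after parabola 3, against 6.48, 6.31, 6.7 and 6.75 after parabola 1, with no overlap (−0.63 ± 0.16 SE, limma adjusted p = 0.0506). It was 0.88 above level flight after parabola 3, against 1.51 after parabola 1. The differences were −0.58 for AT3G61898, −0.67 for AT3G29639 and −0.35 for AGL46, with limma adjusted p of 0.102, 0.201 and 0.32.

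The 2 of the 20 that changed fell, AT5G47980 no longer so without replicate 1 or 3 of parabola 1 or replicate 3 or 4 of parabola 3. AT5G47980 stood at 4.01, 4.28, 3.83 and 3.91 after parabola 3, against 4.99, 4.2, 5.49 and 4.85 after parabola 1 (−0.88 ± 0.19 SE, limma adjusted p = 0.025). It was at 1.77, 0.90 and 2.20 relative to level flight after parabola 1, 3 and 10. AT5G26290 stood at 8.97, 9.22, 9.23 and 9.0 after parabola 3, against 9.73, 9.59, 10.28 and 9.90 after parabola 1 (−0.77 ± 0.14 SE, limma adjusted p = 0.0094), and was at 1.91, 1.14 and 1.82. Both thus stood lower after parabola 3 than after the parabolas measured on either side of it.

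Lists of genes for touch, stress and hormones gave few calls, and most of their members were not among the tested genes. Of 9 measured calcium sensors and touch genes out of 24 listed, none changed by limma at an adjusted p under 0.05, and 0 had an unadjusted p under 0.05. Their median difference was −0.0024. CML38, a calmodulin-like calcium sensor, differed by −0.02 (95% interval −0.44 to 0.39). Of 7 early stress regulators WRKY22 alone rose, where 0.761% of all tested genes rose, and the list median was 0.09. Of 4 defence genes none passed, though the ubiquitin ligase gene PUB22 stood at 7.84, 6.90, 7.38 and 7.20 after parabola 3, against 6.61, 6.87, 6.39 and 6.61 after parabola 1 (0.71 ± 0.19 SE, limma adjusted p = 0.0801). None of 8 heat shock genes passed (median −0.05), and only 3 of the 8 had a mean level above the median over the tested genes. All 8 were highest, among the parabola 3 arrays, on replicate 3, which raised their differences. AT1G07400 stood at 3.53, 3.83, 6.29 and 3.60 after parabola 3, against 4.56, 4.76, 3.91 and 4.11 after parabola 1. The lack of calls in this list therefore does not show that the groups were alike.

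All 6 measured genes of abscisic acid, cold and dehydration had negative differences, and none passed the test over all genes. Their median was −0.20, and 3 of the 6 had an unadjusted p under 0.05, against 7.29% of all tested genes with a negative difference at that level. KIN1 stood at 5.10, 5.22, 5.12 and 4.92 after parabola 3, against 6.26, 6.29, 5.71 and 5.42 after parabola 1 (−0.83 ± 0.24 SE, limma adjusted p = 0.0998). KIN2 differed by −0.38 ± 0.11 SE (limma adjusted p = 0.0824). Both encode small hydrophilic proteins that accumulate in the cold. Of 12 hypoxia genes none passed, with a median of 0.10, and 3 had an unadjusted p under 0.05 with a positive difference, against 7.2% of all tested genes. Among 9 auxin response genes none passed (median −0.10), and GH3.17 was not on that list. In the list of auxin transport and gravitropism, the loci AT1G72490 and AT1G17400 differed by 0.05 (95% interval −0.30 to 0.40) and 0.02 (−0.27 to 0.30). AT1G17400 was low on the arrays, with a mean level above that of only 23.3% of the tested genes, so its narrow interval says little.

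Cell wall and family lists were also nearly without calls. All 4 jacalin lectin genes on the list had negative differences (median −0.29), and none passed. Of these, 3 had an unadjusted p under 0.05, against 7.29% of all tested genes with a negative difference at that level. The 5 measured genes with the symbol stem JAL all had negative differences (median −0.32), 4 with an unadjusted p under 0.05, and none passed. None of 23 expansins passed (median 0.10), and without adjustment 5 had a p under 0.05 with a positive difference (7.2% of all tested genes) and 1 with a negative one (7.29%). EXLB1 came nearest, with 3.78, 3.96, 4.09 and 3.56 after parabola 3, against 3.34, 3.27, 3.34 and 3.46 after parabola 1 (0.50 ± 0.13 SE, limma adjusted p = 0.0537). None of the 8 xyloglucan endotransglucosylases on the list passed, nor did any of the 9 genes with the symbol stem XTH. Only 2 of the 8 had a mean level above the median over the tested genes, so their lack of calls says little. Of 98 small secreted and defensin-like peptides, LCR73 rose and CLE26 fell, near the 0.761% and 0.961% of all tested genes that rose and fell. Of 20 cytochromes P450, CYP71B29 rose and CYP718 fell, against the same shares. Only 12 of the 98 peptides and 3 of the 20 cytochromes had a mean level above the median over the tested genes. Of 59 families formed by a shared symbol stem, 49 had no changed member, and none had 3, where 1.72% of all tested genes changed.

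**Figure D4:**
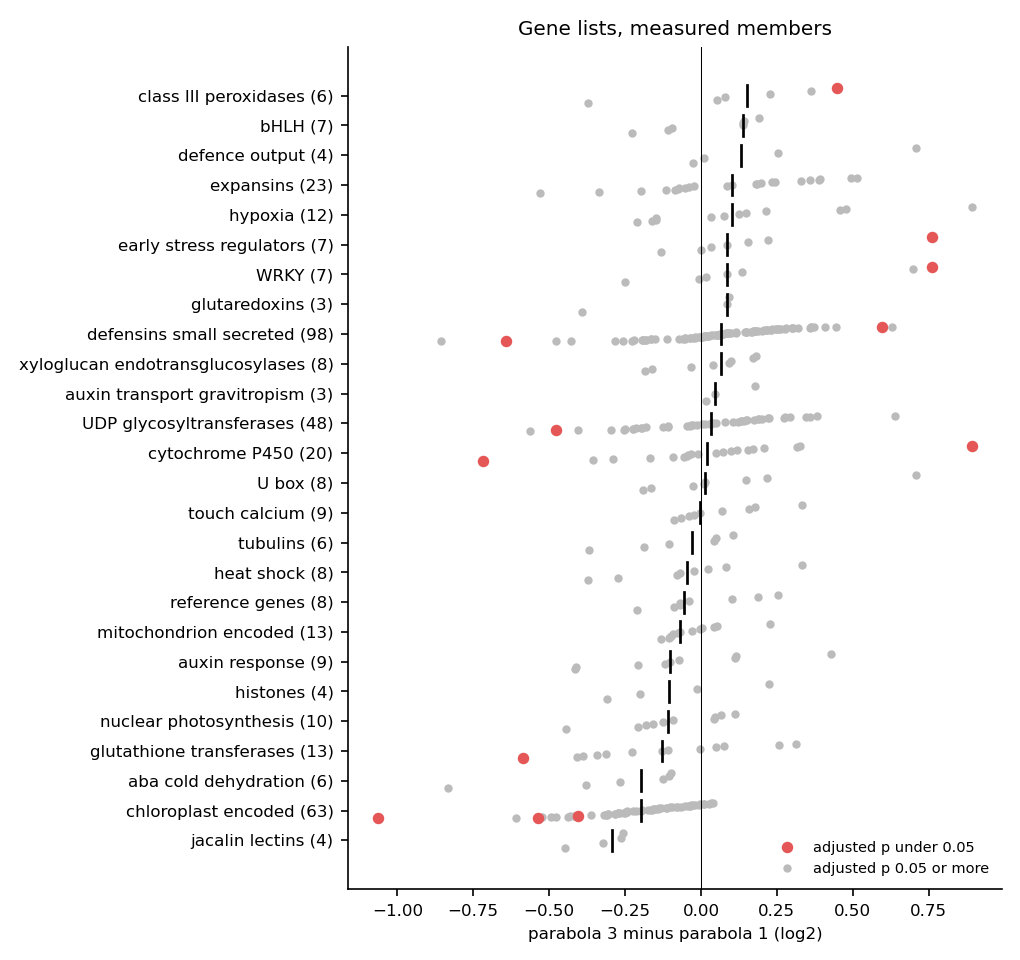
Log2 difference, parabola 3 minus parabola 1, of each measured member of the gene lists with at least 3 measured members. Numbers of members stand in brackets, black bars are list medians, and red points have an adjusted p under 0.05 over all genes. The chloroplast-encoded list has 3 red points, all below 0, and most other lists have none.

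Of 63 chloroplast-encoded genes, 3 fell after parabola 3 and 60 did not pass the test, where 0.961% of all tested genes fell. A negative difference was found in 58 of the 63, against 7520 of all 16550 tested genes. The median was −0.20, against 0.018 over all tested genes. Without adjustment, 20 of the 63 had a p under 0.05 with a negative difference, against 7.29% of all tested genes. The 63 genes share 1 genome and the same arrays, so they are not separate units. The 3 that fell were psbM and psbI, which encode small subunits of photosystem II, and psbN, which encodes a factor for its assembly. psbM stood at 8.18, 7.22, 7.30 and 6.90 after parabola 3, against 8.25, 8.32, 8.70 and 8.59 after parabola 1 (−1.06 ± 0.23 SE, limma adjusted p = 0.0252). Replicate 1 of parabola 3 was only just below the lowest parabola 1 array. psbN fell by 0.54 and psbI by 0.41 on the log2 scale. The psbI call was lost under repeated quantile normalization (−0.24, limma adjusted p = 0.201), and all 3 calls were lost without replicate 2 or 4 of parabola 3. With the unnamed-row median as covariate, which like the chloroplast mean was highest after parabola 1, all 3 calls were lost too (limma adjusted p from 0.582 to 0.876).

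The mean level of the 63 genes was 9.97, 9.99, 10.15 and 10.03 after parabola 3, against 10.18, 10.20, 10.40 and 10.23 after parabola 1. The groups did not overlap, and the difference of −0.22 had an exact permutation p of 0.0286, the smallest that 4 against 4 arrays allow, and an adjusted p of 0.2 over the 7 array-level values. In level flight the mean was 10.04 ± 0.15 (SD, n = 4) and after parabola 10 it was 9.89 ± 0.25 (SD, n = 3). The 10 measured nuclear genes of photosynthesis, which would mark green tissue, ranged in mean level from 4.18 to 4.55 after parabola 3 and from 4.41 to 4.56 after parabola 1, and none was called. Their part in the chloroplast difference was not tested. The 13 mitochondrion-encoded genes differed by −0.03 in mean level (exact permutation p = 0.686).

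**Figure D5:**
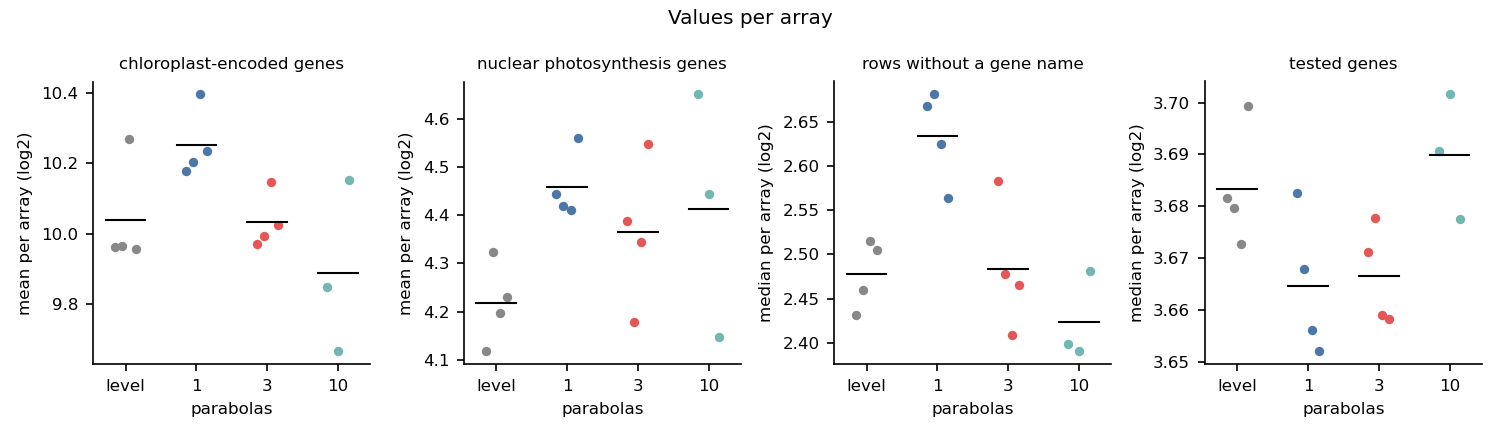
Values per array on the log2 scale, in level flight and after parabola 1, 3 and 10, for the mean of 63 chloroplast-encoded genes, the mean of 10 nuclear photosynthesis genes, the median of the unnamed rows and the median of the tested genes. Points are arrays and bars are group means. The chloroplast mean and the unnamed rows are highest after parabola 1, and the median of the tested genes spans a narrow range.

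Some changed genes lay beside another changed gene. Counting pairs with at most 2 other annotated genes between them, 23 pairs had both members changed, and 21 of these moved the same way, 16 upward and 5 downward. Over all 24089 neighbour pairs of tested genes, changed or not, 52.4% had differences of the same sign. The pairs are not separate units, since a run of 3 changed loci counts as 3 pairs. This held for AT5G41280 to AT5G41300 and for AT5G45480 to AT5G45510. In all, 39 changed genes, or 13.8% of the 282 that could be placed, were in such a pair, and no background share was computed for this. A run of 3 adjoining loci rose, namely AT5G41280 (1.53 ± 0.16 SE), AT5G41290 (1.3 ± 0.21 SE) and AT5G41300 (1.88 ± 0.27 SE). On AT5G41290 the parabola 3 arrays stood at 8.97, 8.71, 8.04 and 8.45, against 6.97, 7.27, 7.23 and 7.51 after parabola 1. PIRIN2 lay near AT2G43140, AT2G30660 beside AT2G30670, and NAI1 beside AT2G22760, which fell by 0.99. GH3.17 lay beside AT1G28120, which fell by 0.50. Probe sequences were not compared here, and whether neighbours share probes was not tested. AT3G28510 rose by 1.25 while AT3G28530 fell by 0.91, 1 of the 2 pairs that moved in opposite directions.

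Parabola 10 and level flight share no array with this comparison. Of the 126 rises, 82 (65.1%) were also higher after parabola 10 than in level flight, against 65.3% of all tested genes with a positive difference between parabola 3 and parabola 1. Of the 159 falls, 96 (60.4%) were also lower after parabola 10 than in level flight, against 50.4% of all tested genes with a negative difference. The share among the rises was thus near that of all genes, and the share among the falls was above it, a description without a test.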

How the data were processed

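Roots of 15 pools were measured on AraGene 1.0 ST arrays. The authors deposited log2 expression values, 1 column per array. Per the submitters' processing notes, RMA, oligo, limma, R 4.0.0 and the TAIR10 build were used, with no role given for each. Of 38408 rows, 16722 carried exactly 1 gene, 759 several and 20927 none. For the 146 genes with several rows, the row with the highest mean was kept, which gave 16550 genes. The values were used as deposited. The limma package, version 3.58.1 under R 4.3.3, fitted 4 group means to the 15 arrays and moderated the variances (lmFit, eBayes), and p-values were adjusted by Benjamini-Hochberg over all genes. Array-level values were compared by exact permutation tests, two-sided. The fit was tested on simulated data, with noise drawn separately for each gene and array. That test says nothing about shifts shared across the genes of an array.

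Genes were named as follows: the 15 largest rises and 15 largest falls that passed the test with groups that did not overlap, up to 4 members per list by smallest p, and 6 genes put forward by the study or by earlier results. Genes with a symbol were added after their values were seen. The members and lists were chosen with earlier results of these data known. Alternatives were other scalings, filters, row rules, models, a replicate block and leaving out each array. The scalings and left-out arrays for array-level values were added after seeing the data. Promoter motifs and coordinates were not analysed here, nor were 14-3-3 genes. Precision is limited by how many arrays each group has.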

Additional observations from a re-analysis of the deposited data

Results flagged for a closer look

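Of 316 sets of 4 arrays, 14 (4.43%) held an array far from the other 3, by Dixon's test of the gap against the range. The sets were 1 per group for each gene named by size, by list or by the study's question. Genes described for other reasons, such as AT3G41762, were not among them. Chance alone gives about 1 in 20. The genes named by size were picked for groups that did not overlap, so that rate is no matched background. After parabola 3, replicate 1 was high for GH3.3 (7.13, others 6.26 to 6.34), AT5G55840 (3.44, others 2.96 to 3.02) and LCR73 (3.73, others 3.49 to 3.52), and low for GI (4.77, others 5.10 to 5.14). Replicate 3 of parabola 3 was high for AT2G32170 (5.76), WRKY41 (2.76, others 2.18 to 2.27) and AT4G29780 (6.58, others 5.39 to 5.48). After parabola 1, replicate 1 was high for GSTU26 (9.52, others 9.31 to 9.33) and low for WRKY29 (7.45, others 7.95 to 7.99). Replicate 2 was high for AT5G66780 (7.54). Replicate 3 was high for CML42 (6.51) and low for CML43 (3.47) and AT3G53600 (3.51, others 4.35 to 4.47), and replicate 4 was low for PUB23 (6.92). Of these genes, LCR73, GSTU26 and AT5G66780 passed the test between parabola 3 and parabola 1.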

How the results depend on the processing

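No gene named by a fold change that passed the test changed sign under the alternatives run, which reuse the arrays on which the genes were called. The balance of higher to lower genes turned with the covariate and with the 2-fold minimum. It also turned without replicate 2 of parabola 3 (89 higher, 82 lower) and without replicate 3 of parabola 1 (83 higher, 75 lower). Of 36 list medians, 16 changed sign under at least 1 alternative, all of 0.138 or less in size, among them those of the touch, first-response, heat shock and photosynthesis lists. The count of 285 changed genes (126 higher, 159 lower) became 160 (75 higher, 85 lower) with the parabola 3 and parabola 1 arrays alone, 19 (11 and 8) with the unnamed-row median as covariate, 82 (40 and 42) at an adjusted p under 0.01, and 55 (36 and 19) with a 2-fold minimum. Leaving out 1 array at a time gave 134 to 384 changed genes, 56 to 149 higher and 75 to 235 lower. The share of changed genes with the same sign in parabola 10 against level flight, 62.5%, became 52.6% with the covariate, 69.1% with the 2-fold minimum and 58.5% to 71.6% with 1 array left out. With the replicate number as a block, 278 genes changed (117 higher, 161 lower), of which 236 were among the 285. The numbers did not pair the arrays, since same-numbered arrays correlated at −0.004 to 0.03 and 0 of 4 numbers matched best with itself. Of the 30 genes named by size, all kept their call under the 3 other scalings and the block, 6 lost it when all rows were tested, and 18 lost it with the covariate. With 1 array left out, 0 to 5 lost it. The causes were not tested. With 4 arrays a group, the median standard error was 0.12, and small differences were not detectable.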
